A study of Mus musculus with 14 samples.

Results

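The genes of glycolysis, glucose transport and the hypoxia response were read as a set of 39, chosen by symbol from the 33939 genes measured in RNA-seq libraries of CD11b+ microglia/macrophages. All 39 symbols matched an Ensembl identifier of the expression table. They comprise 5 hexose transporters, 3 hexokinases with glucose phosphate isomerase, 6 genes of the phosphofructokinase step, 9 genes of lower glycolysis, 3 pyruvate dehydrogenase kinases, 6 genes of the hypoxia-inducible factors and oxygen sensing, and 6 hypoxia-responsive genes. Cells were isolated with magnetic CD11b beads at 3 days after traumatic brain injury (TBI) from the contralateral (CL), non-lesion hemisphere and from the ipsilateral (IL), lesioned hemisphere. All animals were C57BL/6 mice 8 to 12 weeks old that carried Cx3cr1-CreER+/- and had received tamoxifen. Ctrl mice had no further allele, and cKO mice had in addition a gene floxed on both chromosomes, which the Cre removes in cells that express *Cx3cr1*. The beads do not part resident microglia from infiltrated myeloid cells, and no library of an uninjured mouse entered the comparisons, so CL stands for the far side of an injured brain. There were 4 libraries each of Ctrl CL and Ctrl IL and 3 each of cKO CL and cKO IL. Ctrl mice 3541, 3545, 3546 and 3551 and cKO mice 791 and 3592 gave both hemispheres, cKO mouse 788 gave only CL and cKO mouse 784 only IL. Values are given below in that order of mice, the unpaired mouse last.

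Glycolysis converts glucose to pyruvate in the cytosol and yields ATP without oxygen, and activated microglia and macrophages are known to lean on it. The hypoxia-inducible factor joins this pathway to oxygen. When oxygen is present, prolyl hydroxylases mark its alpha subunit for capture by the von Hippel-Lindau protein and degradation, and when oxygen falls the factor persists and raises transcription of glucose transporters, glycolytic enzymes and pyruvate dehydrogenase kinases.

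The authors' values are counts scaled to a common library total (CPM, which sum to 1e+06 in each library), and the reads behind a library ranged from 12.2 to 41.6 M, with a median of 34.2 M. The IL library of Ctrl mouse 3546, at 12.2 M reads, and the CL library of Ctrl mouse 3551, at 16.1 M, were the shallowest and stood apart from the rest. They held the neuronal gene *Tubb3* at 17.5 and 13.6 CPM, which reached at most 0.768 in the other 12, and several copies of *Gapdh* in the same way. The 5 microglial markers (*P2ry12*, *Tmem119*, *Sall1*, *Siglech* and *Gpr34*) were detected in every library, and their summed level was 9027 to 13500 CPM in Ctrl CL against 4051 to 5566 in Ctrl IL, and 9372 to 12170 in cKO CL against 4778 to 4958 in cKO IL. The summed level of 6 infiltrating monocyte markers ran from 76.6 to 662 CPM in Ctrl CL, 141 to 340 in Ctrl IL, 88.4 to 198 in cKO CL and 167 to 229 in cKO IL. Of these 6, *F10*, *Vcan* and *Ccr2* were higher in IL in all 6 mice that gave both hemispheres, with IL to CL ratios of 5.46 to 39.8, 1.77 to 9.42 and 1.29 to 2.48. *Plac8* was higher in 4 of these mice, *Chil3* in 2 and *Ly6c2* in 1. The 7 neutrophil markers summed to 458 to 6046 CPM in Ctrl CL, 138 to 806 in Ctrl IL, 454.5 to 1294 in cKO CL and 185 to 280 in cKO IL. The 6 astrocyte markers summed to 195 to 217.5 CPM in Ctrl CL, 117 to 162.5 in Ctrl IL, 172 to 205 in cKO CL and 131 to 189 in cKO IL. The 6 endothelial markers summed to 103 to 264, 75.0 to 127, 67.6 to 146 and 82.1 to 120 CPM in the same order. The 6 oligodendrocyte markers summed to 202 to 303, 167 to 242, 174 to 211 and 199 to 238 CPM, and their sum was lower in IL in each of the 6 mice that gave both hemispheres. The 10 genes of the response to cell dissociation, *Fos* and *Jun* among them, had lower sums in IL too, 19340 to 21570 CPM against 27590 to 35780 in Ctrl and 19830 to 22900 against 30400 to 42440 in cKO. The part of these differences in the results between hemispheres was not tested. In such bulk libraries fewer cells of a type and less RNA per cell cannot be told apart.

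Between the hemispheres, 3 of the 9 genes of the lower part of glycolysis were called higher in IL in both genotypes and 4 more in cKO, while *Aldoc* had a negative change in both. In cells of the injured side, *Pkm*, *Pgam1* and *Eno1*, which together turn phosphoglycerate into pyruvate, were about 2-fold or more higher than on the far side in both genotypes. The hexose transporter *Slc2a6*, the phosphofructokinase subunit *Pfkp* and *Hif1a* were higher on that side in both genotypes too, and the fructose transporter *Slc2a5* was lower in Ctrl. A gene was called where its limma adjusted p was no more than 0.05 and its change at least 1.2-fold, the thresholds of the study. In Ctrl, 6 of 39 genes were called higher and 1 lower in IL, where 3.68% of all genes tested were called higher and 2.97% lower, 6.65% in all. In cKO, 14 were called higher and 3 lower, where the shares over all genes were 12.8% and 9.54%, 22.3% in all. An unadjusted p under 0.05 was found for 18 of the 39 in Ctrl and 24 in cKO, against 21.2% and 36.6% of all genes. IL and CL libraries did not overlap for 11 higher and 3 lower genes in Ctrl, against 6.26% and 11.4% of all genes, and for 15 higher and 6 lower genes in cKO, against 18.1% and 24.3%. The median log2 fold change over the 39 was 0.38 in Ctrl and 0.37 in cKO, against -0.037 and 0.018 over all genes tested.

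The mouse numbers pair the hemispheres, and with the mouse as a block 15 genes were called higher and 4 lower in Ctrl, against 9.84% and 10.7% of all genes (20.5% together). The same block gave 16 higher and 1 lower in cKO, against 8.9% and 4.94% (13.8% together). Values in cKO with the fixed block rest on mice 791 and 3592 alone, since the labels give 784 and 788 as different numbers with 1 hemisphere each. The deviations of these 2 libraries from their group means correlated at 0.182, as did those of mouse 791, so that whether they are 1 mouse is not settled. A model of all 14 libraries that took the mouse as random called 22 of the 39 in Ctrl and 20 in cKO, against 23% and 16.9% of all genes. Within the 6 mice that gave both hemispheres, 17 of the 39 genes were higher in IL in every mouse and 7 were lower in every mouse, against 10.1% and 21% of all genes. The count in Ctrl moved between 1 and 8 as single libraries were left out. It was 8 without the IL library of mouse 3546 (8.56% of all genes called), 6 without CL 3541 (5.2%), 1 without IL 3541 (2.83%), 2 without IL 3545 (3.11%), 3 without CL 3545 or IL 3551 (3.47% and 3.49%) and 4 without CL 3546 or CL 3551 (3.75% and 5.49%), and *Pfkp* was called in each of these 8 fits. *Hif1a* lost its call without IL 3541 or IL 3545, *Slc2a6* without these, CL 3545 or IL 3551, and *Pkm* without IL 3541, IL 3545 or CL 3546. Among the fits with 1 library removed, *Eno1* and *Pgam1* kept theirs only without CL 3541 or IL 3546, and *Slc2a5* only without CL 3546 or IL 3546. Without both shallow libraries, a setting chosen after seeing the data, 6 genes were called in Ctrl (7.92% of all genes), with *Egln3* in place of *Pgam1* and *Slc2a5*. In cKO the count was 7 without the IL library of mouse 791 (11.1% of all genes), 11 without IL 784 (10.9%), 12 without CL 788 (14.4%), 12 without IL 3592 (13.8%), 16 without CL 791 (17.3%) and 17 without CL 3592 (20.1%). *Aldoa*, *Gapdh*, *Pgam1*, *Eno1*, *Pkm*, *Gpi1* and *Slc2a6* were called in cKO whichever library was left out, while *Hif1a* and *Pgk1* were lost without IL 791 and *Pfkp* without IL 791, CL 791 or IL 3592. The other 7 genes, *Tpi1*, *Pfkl*, *Slc2a8*, *Pdk2*, *Pdk3*, *Vhl* and *Ddit4*, each lost the call in 3 to 5 of these 6 fits.

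**Figure D1:**
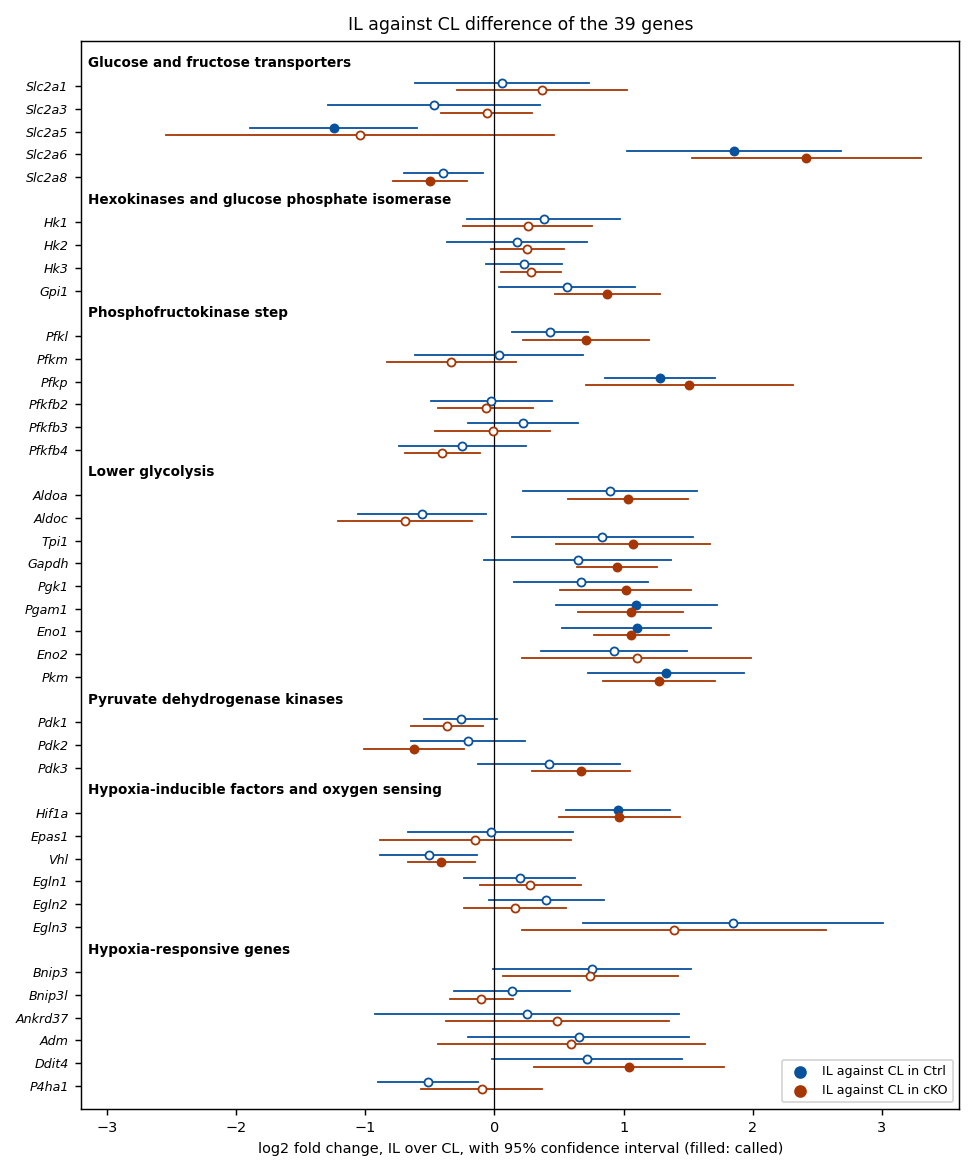
Log2 fold change of IL over CL (x axis, log2 of CPM + 1 after scaling) for each of the 39 genes, grouped by role, in Ctrl (blue, 4 against 4 libraries) and cKO (brown, 3 against 3). Bars are 95% confidence intervals and filled points are called genes; the lower glycolysis genes except *Aldoc* lie to the right of 0 in both genotypes.

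To show the upstream sequence of genes called between the hemispheres, the 250 bases before the RefSeq start (GRCm38.p6, given 5′ to 3′ on the strand of the gene) are printed for the 6 genes called higher in both genotypes and for *Slc2a5*, called lower in Ctrl. Where RefSeq has several starts for a gene, the one nearest to the start of the first GENCODE transcript marked principal was taken; it lay 244 bases from it in *Eno1*, 208 in *Pkm* and at most 61 in the other 5. Capitals mark ACGTG or GCGTG, the core that the hypoxia-inducible factor binds, read on both strands, so that its reverse complement CACGT or CACGC is also in capitals. CACGTG holds the core on both strands and counts as 2.
*Slc2a6*, chr2:27027999-27028248, minus strand: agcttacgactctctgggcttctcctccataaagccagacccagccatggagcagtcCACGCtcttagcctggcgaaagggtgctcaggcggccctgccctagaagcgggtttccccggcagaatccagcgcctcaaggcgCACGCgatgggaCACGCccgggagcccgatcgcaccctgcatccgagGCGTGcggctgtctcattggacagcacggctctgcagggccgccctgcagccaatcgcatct
*Pfkp*, chr13:6648772-6649021, minus strand: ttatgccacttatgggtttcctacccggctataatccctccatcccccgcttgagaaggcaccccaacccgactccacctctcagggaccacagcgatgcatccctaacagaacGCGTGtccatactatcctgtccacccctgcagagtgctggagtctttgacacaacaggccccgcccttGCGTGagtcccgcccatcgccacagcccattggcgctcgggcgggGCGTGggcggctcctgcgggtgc
*Pgam1*, chr19:41911621-41911870, plus strand: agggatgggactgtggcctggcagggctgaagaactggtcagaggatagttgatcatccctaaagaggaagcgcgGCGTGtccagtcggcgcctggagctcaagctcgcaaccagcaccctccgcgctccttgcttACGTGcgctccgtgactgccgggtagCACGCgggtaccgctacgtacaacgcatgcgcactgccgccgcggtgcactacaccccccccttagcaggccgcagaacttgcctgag
*Eno1*, chr4:150236458-150236707, plus strand: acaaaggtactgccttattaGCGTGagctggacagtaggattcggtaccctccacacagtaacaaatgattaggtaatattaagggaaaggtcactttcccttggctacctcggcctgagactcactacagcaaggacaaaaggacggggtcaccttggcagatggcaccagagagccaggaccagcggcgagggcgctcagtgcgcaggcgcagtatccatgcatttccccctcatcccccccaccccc
*Pkm*, chr9:59656326-59656575, plus strand: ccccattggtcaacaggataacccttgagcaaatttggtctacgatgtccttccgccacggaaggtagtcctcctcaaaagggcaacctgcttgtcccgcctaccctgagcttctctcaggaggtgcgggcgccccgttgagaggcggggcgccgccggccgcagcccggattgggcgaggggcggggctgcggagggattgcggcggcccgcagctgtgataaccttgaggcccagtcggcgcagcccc
*Hif1a*, chr12:73907617-73907866, plus strand: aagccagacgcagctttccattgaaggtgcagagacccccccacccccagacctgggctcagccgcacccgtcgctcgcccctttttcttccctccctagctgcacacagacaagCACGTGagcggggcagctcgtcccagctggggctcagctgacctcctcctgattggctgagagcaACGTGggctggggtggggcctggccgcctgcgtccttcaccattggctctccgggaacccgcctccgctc
*Slc2a5*, chr4:150119094-150119343, plus strand: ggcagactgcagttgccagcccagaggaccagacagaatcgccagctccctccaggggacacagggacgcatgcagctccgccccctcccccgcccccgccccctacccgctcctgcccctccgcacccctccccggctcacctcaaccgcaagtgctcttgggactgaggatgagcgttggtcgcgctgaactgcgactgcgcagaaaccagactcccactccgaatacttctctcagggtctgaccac

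The core stood 4 times in the *Slc2a6* window, 3 times in those of *Pfkp*, *Pgam1* and *Hif1a* and 1 time in that of *Eno1*, and was not in those of *Pkm* and *Slc2a5*. Counted from the start, its first bases lay at -193, -109, -97 and -62 in *Slc2a6*, at -136, -68 and -23 in *Pfkp*, at -175, -114 and -88 in *Pgam1*, at -135, -134 and -70 in *Hif1a* and at -230 in *Eno1*. Windows were found for 36 of the 39 genes (not for *Slc2a3*, *Epas1* and *Bnip3l*), and 30 of them, 83.3%, held at least 1 core. Over all 32851 RefSeq windows of the same length, counted without choosing 1 per gene, the share was 38.6%. The 39 genes were listed for glycolysis and the hypoxia response and include kinds of gene that the factor raises. Setting these shares side by side is therefore not a test. The chosen window lay 17941 bases from the principal start in *Hk1* and 694 in *Gapdh*. The windows of the 36 genes were also richer in G and C, at 62.0% against 53.2%, and a match of these letters describes the sequence and is not a site.

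Among the hexose transporters, *Slc2a6* rose on the injured side in both genotypes and *Slc2a5* fell in Ctrl. *Slc2a6* (ENSMUSG00000036067, chr2:27021363-27027998), a hexose transporter of the lysosome in macrophages, was at 68.9, 24.9, 20.2 and 30.3 CPM in Ctrl CL, 121, 116, 92.7 and 126 in Ctrl IL, 84.3, 31.2 and 24.7 in cKO CL and 233, 174 and 219 in cKO IL. Every IL library lay above every CL library of its genotype, and the highest CL values came from Ctrl mouse 3541 and cKO mouse 791. The log2 fold change of IL over CL was 1.86 (limma adjusted p = 0.0175, SE 0.37) in Ctrl and 2.42 (limma adjusted p = 0.00529, SE 0.39) in cKO, and within the 6 paired mice the ratio ran from 1.75 to 5.59. *Slc2a5* (ENSMUSG00000028976, chr4:150119283-150144169), a fructose transporter that among brain cells is typical of microglia, was at 112, 97.2, 52.3 and 96.6 CPM in Ctrl CL, 39.1, 32.2, 27.6 and 38.4 in Ctrl IL, 49.2, 204 and 226 in cKO CL and 23.9, 96.7 and 92.0 in cKO IL. All Ctrl IL libraries lay below all Ctrl CL libraries, whereas in cKO the CL library of mouse 791 stood below the IL libraries of mice 3592 and 784. Its log2 change was -1.24 (limma adjusted p = 0.0327, SE 0.29) in Ctrl and -1.04 (limma adjusted p = 0.29, SE 0.66) in cKO, and with the mouse as a block, which in cKO rests on mice 791 and 3592, it was called there as well, at -0.94 (limma adjusted p = 0.00474, SE 0.13). The model that took the mouse as random did not call *Slc2a5* in cKO. In cKO the change was -0.44 without the IL library of mouse 791 and -1.74 without its CL library. In each of the 6 mice the IL library held between 0.331 and 0.529 of the CL level. The fall of *Slc2a5* went with that of the microglial markers given above, and the part of those markers in it was not tested.

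*Slc2a8*, a transporter of intracellular membranes, was at 55.0, 44.7, 69.0 and 63.7 CPM in Ctrl CL, 36.2, 34.1, 49.4 and 47.0 in Ctrl IL, 49.2, 68.0 and 55.5 in cKO CL and 35.8, 41.9 and 36.0 in cKO IL. The groups did not overlap in cKO, with a log2 change of -0.50 (limma adjusted p = 0.0246, SE 0.12), and in Ctrl they overlapped, with -0.40 (limma adjusted p = 0.128, SE 0.14). With the mouse as a fixed block the calls changed places, with an adjusted p of 0.0185 in Ctrl and 0.0824 in cKO, and IL was the lower side in all 6 mice. *Slc2a8* was called in both genotypes by the model that took the mouse as random. *Slc2a1*, the main transporter for basal glucose uptake, lay between 111 and 249.6 CPM and *Slc2a3*, a high-affinity glucose transporter, between 14.9 and 53.3 CPM in the 14 libraries, and neither was called in any comparison. Per kilobase of exon, *Slc2a6* made up 10.1% of the summed level of the 5 transporters in Ctrl CL and 33.5% in Ctrl IL, and 13.9% and 44.1% in cKO. *Slc2a5* went from 24.7% to 9.54% and from 37.3% to 14.8%. *Slc2a1* held 42.9% and 41.9% in Ctrl and 31.2% and 31.3% in cKO.

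**Figure D2:**
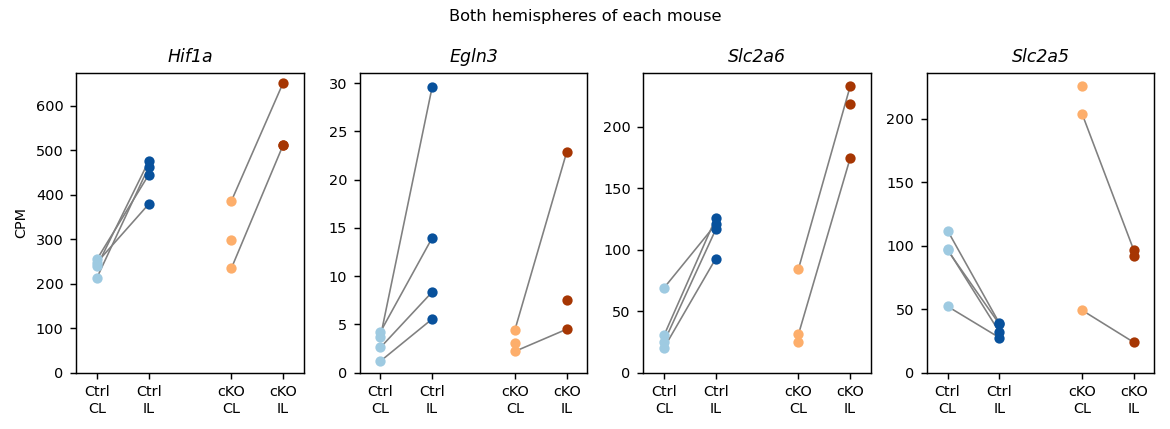
CPM (y axis, linear, from 0) of *Hif1a*, *Egln3*, *Slc2a6* and *Slc2a5* in every library by genotype and hemisphere, with grey lines joining the hemispheres of 1 mouse. *Hif1a*, *Egln3* and *Slc2a6* rise from CL to IL in all 6 paired mice and *Slc2a5* falls in all 6.

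The hexokinases, which phosphorylate glucose on entry, were not called between the hemispheres in either genotype with or without the block; *Hk3* was called higher in cKO without the CL library of mouse 3592. Their log2 fold changes lay between 0.18 (*Hk2*) and 0.38 (*Hk1*) in Ctrl and between 0.26 (*Hk2*) and 0.28 (*Hk3*) in cKO. *Hk3*, the form of blood and myeloid cells, made up 70.6% to 75.4% of the summed hexokinase level per kilobase in the 4 groups. *Gpi1*, which turns glucose phosphate into fructose phosphate, was at 191, 122, 137 and 119.8 CPM in Ctrl CL, 198, 236, 185 and 174 in Ctrl IL, 132, 104 and 105 in cKO CL and 242, 172 and 180 in cKO IL. Its groups did not overlap in cKO, with a log2 change of 0.87 (limma adjusted p = 0.0115, SE 0.18). In Ctrl the CL library of mouse 3541 stood above the IL libraries of mice 3546 and 3551, the change was 0.57 (limma adjusted p = 0.201, SE 0.24), and the block brought it to an adjusted p of 0.0259.

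At the phosphofructokinase step, which commits sugar to glycolysis, *Pfkp* and *Pfkl* were higher in IL and the other genes were not called. *Pfkp* (ENSMUSG00000021196, chr13:6579768-6648777), the platelet-type subunit, was at 12.9, 8.42, 14.6 and 13.7 CPM in Ctrl CL, 22.8, 32.6, 36.6 and 27.7 in Ctrl IL, 8.92, 21.4 and 6.56 in cKO CL and 35.6, 32.9 and 25.5 in cKO IL. Within each genotype every IL library exceeded every CL library, and the CL libraries of cKO were the more scattered. Its log2 change was 1.28 (limma adjusted p = 0.00425, SE 0.19) in Ctrl and 1.51 (limma adjusted p = 0.0183, SE 0.35) in cKO, and in Ctrl it was called in each of the 22 alternative settings. *Pfkl*, the liver-type subunit, was at 118, 130.4, 142 and 127 CPM in Ctrl CL, 163, 149, 166 and 187 in Ctrl IL, 147, 114 and 98.9 in cKO CL and 241, 174 and 147 in cKO IL. In Ctrl the groups did not overlap, but the change of 0.43 (limma adjusted p = 0.0886, SE 0.13) was not called without the block (adjusted p = 0.0233 with it). In cKO the IL library of mouse 784 lay just under the CL library of mouse 791, and the change was 0.71 (limma adjusted p = 0.046, SE 0.21), which fell to 0.47 and lost the call without the IL library of mouse 791. *Pfkl* held 86.1% to 88.3% of the summed level of the 3 subunits per kilobase, and *Pfkp* went from 4.19% to 7.76% in Ctrl and from 4.48% to 7.46% in cKO. *Pfkm*, the muscle-type subunit, and *Pfkfb2*, *Pfkfb3* and *Pfkfb4*, whose enzymes make and remove the fructose bisphosphate that activates phosphofructokinase, had log2 fold changes from -0.25 to 0.22 in Ctrl and from -0.40 to -0.014 in cKO. *Pfkfb4* was called in cKO under median-ratio and upper-quartile scaling and without the CL library of mouse 791.

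Of the 9 genes of lower glycolysis, 3 were called higher in IL in Ctrl and 7 in cKO, and with the block 8 and 7. The shares of all genes called higher were 3.68% and 12.8%, and 9.84% and 8.9% with the block. The median log2 fold change was 0.90 in Ctrl and 1.06 in cKO. All except *Aldoc* were higher in IL in each of the 6 paired mice. *Pkm* (ENSMUSG00000032294, chr9:59656368-59679375), pyruvate kinase, was at 1351, 953, 732 and 904 CPM in Ctrl CL, 2474, 2568, 2070 and 2098 in Ctrl IL, 1108, 779 and 911 in cKO CL and 2378, 1980 and 1989 in cKO IL. The lowest IL library of each genotype stood well above its highest CL library, and the log2 fold change was 1.33 (limma adjusted p = 0.0191, SE 0.27) in Ctrl and 1.27 (limma adjusted p = 0.00426, SE 0.19) in cKO. *Eno1* (ENSMUSG00000063524, chr4:150236721-150248879), the enolase of most tissues, was at 183, 142, 120.1 and 130.3 CPM in Ctrl CL, 304, 363, 219.8 and 295 in Ctrl IL, 163, 131 and 127 in cKO CL and 295, 266 and 266 in cKO IL. The groups did not overlap, with changes of 1.10 (limma adjusted p = 0.034, SE 0.26) and 1.06 (limma adjusted p = 0.00233, SE 0.13). *Pgam1* (ENSMUSG00000011752, chr19:41911923-41918660), phosphoglycerate mutase, was at 210.3, 182, 108 and 174 CPM in Ctrl CL, 369, 393, 309.6 and 278 in Ctrl IL, 186, 131 and 168 in cKO CL and 370.3, 289.8 and 291 in cKO IL. It was likewise without overlap, with changes of 1.10 (limma adjusted p = 0.0464, SE 0.28) and 1.05 (limma adjusted p = 0.00625, SE 0.18).

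The next 4 genes of this stretch were called in cKO, and in Ctrl with the mouse as a block. *Aldoa*, the main aldolase, was at 825, 699, 481 and 498 CPM in Ctrl CL, 1232, 1312, 1003 and 830.3 in Ctrl IL, 604, 472 and 475 in cKO CL and 1238, 818 and 968 in cKO IL. IL and CL libraries did not overlap in either genotype, and the log2 fold change was 0.90 (limma adjusted p = 0.116, SE 0.30) in Ctrl and 1.03 (limma adjusted p = 0.0104, SE 0.20) in cKO. *Tpi1*, triose phosphate isomerase, was at 406, 381, 195 and 280.4 CPM in Ctrl CL, 568, 633, 444 and 441 in Ctrl IL, 378, 221 and 278 in cKO CL and 761, 454 and 528 in cKO IL. Its libraries were also apart, with changes of 0.84 (limma adjusted p = 0.157, SE 0.32) and 1.07 (limma adjusted p = 0.0223, SE 0.26). *Gapdh*, the dehydrogenase of glyceraldehyde phosphate, was at 334, 283, 146 and 223 CPM in Ctrl CL, 395, 416, 277 and 329 in Ctrl IL, 196, 172 and 141 in cKO CL and 334, 307 and 283 in cKO IL. In Ctrl the CL libraries of mice 3541 and 3545 reached above the IL library of mouse 3546, and the changes were 0.64 (limma adjusted p = 0.298, SE 0.33) and 0.95 (limma adjusted p = 0.00363, SE 0.13). *Pgk1*, phosphoglycerate kinase, was at 60.0, 56.3, 35.8 and 53.7 CPM in Ctrl CL, 80.8, 82.8, 75.6 and 69.2 in Ctrl IL, 49.0, 29.4 and 41.8 in cKO CL and 92.8, 67.4 and 69.5 in cKO IL. The groups did not overlap, with changes of 0.67 (limma adjusted p = 0.129, SE 0.23) and 1.02 (limma adjusted p = 0.0147, SE 0.22). With the block the adjusted p in Ctrl was 0.00122 for *Aldoa*, 0.00265 for *Tpi1*, 0.0059 for *Gapdh* and 0.00874 for *Pgk1*.

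The remaining 2 genes of lower glycolysis were at low levels. *Eno2*, the neuronal enolase, was at 0.721, 0.652, 1.38 and 1.55 CPM in Ctrl CL, 2.42, 1.28, 5.07 and 3.22 in Ctrl IL, 3.13, 2.87 and 1.74 in cKO CL and 11.6, 3.40 and 5.74 in cKO IL, so that its highest value came from the IL library of cKO mouse 791. IL was the higher side in all 6 paired mice. It was called in Ctrl with the fixed block, at 0.93 (limma adjusted p = 0.0122, SE 0.18), and in both genotypes by the model that took the mouse as random. It was also called in Ctrl without IL 3545 and in cKO without IL 3592. The 6 neuron markers summed to 1.11 to 3.07 CPM in 12 libraries and to 15.3 and 20 in the 2 shallow ones, most of it *Tubb3*. *Eno1* made up 97.3% to 99.1% of the 2 enolases per kilobase. *Aldoc*, the aldolase of astrocytes and neurons, was between 4.18 and 16 CPM and was the only gene of the 9 with a negative log2 fold change, -0.56 (limma adjusted p = 0.177, SE 0.22) in Ctrl and -0.69 (limma adjusted p = 0.0607, SE 0.23) in cKO, neither called with or without the fixed block, though the model that took the mouse as random called it lower in both, and it was called in cKO without CL 788. It was lower in IL in 5 of 6 mice, with a ratio of 1.13 in mouse 3546. Of the astrocyte markers, whose sums are given above, *Slc1a3* was lower in IL in all 6 mice, at 0.373 to 0.703 of the CL level, and *Gfap* was higher in all 6, at ratios of 1.9 to 6.28. *Gja1* and *Aldh1l1* were higher in IL in 5 of these mice, *Aqp4* in 4 and *Slc1a2* in 1. The part of astrocyte and neuronal RNA in the values of *Aldoc* and *Eno2* was not tested.

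**Figure D3:**
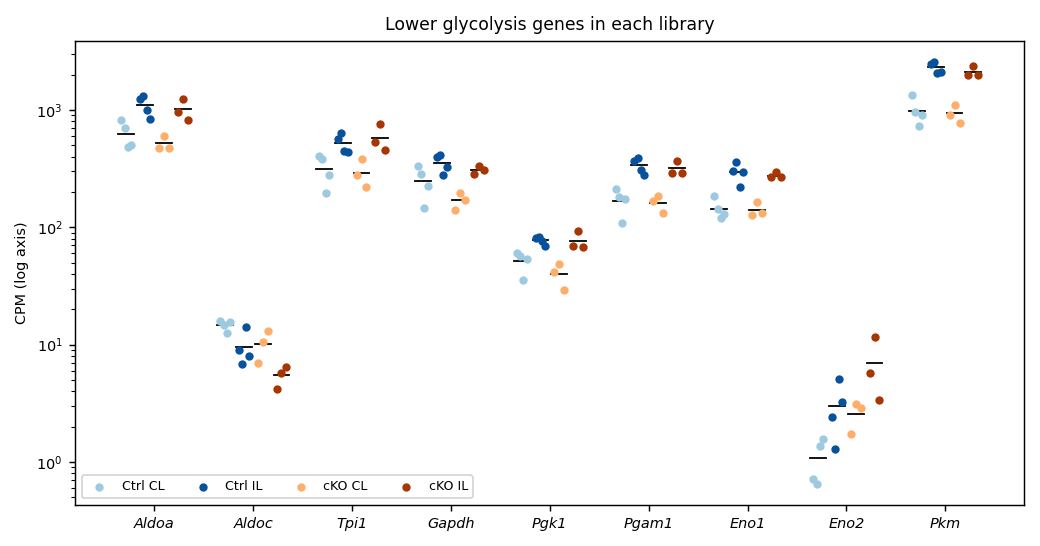
CPM (log axis) of the 9 lower glycolysis genes in each of the 14 libraries, coloured by group, with a black line at the mean of each group. *Pkm* is between 732 and 1351 in CL libraries and between 1980 and 2568 in IL libraries, and *Aldoc* alone has lower means in IL.

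Several of these genes have near-identical copies in the expression table, and how reads were divided among them is not given in the sources used here. A copy here is another gene with a transcript that matches at least 300 bases at 95% identity or more. Copies held 88.7% to 89.3% of the summed CPM of *Eno1*, mostly *Eno1b* and the pseudogene *Gm4735*, 69.9% to 74.6% of that of *Gapdh*, with 46 of 99 copies reaching 1 CPM, and 66.0% to 67.6% of that of *Pgk1*. For *Pgam1* the share was 30.5% to 31.5%, for *Gpi1* 24.8% to 25.6% and for *Pkm* 15.9% to 16.8%. *Pkm* with its copies averaged 1183 ± 312 CPM (SD, n = 4) in Ctrl CL and 2767 ± 274 in Ctrl IL, and 1110.0 ± 193 in cKO CL (SD, n = 3) and 2541 ± 289.5 in cKO IL. *Eno1* with its copies was at 1316 ± 310 and 2620 ± 466.5 CPM in Ctrl and 1273 ± 198 and 2578 ± 389 in cKO. After the copies had been added to each gene, a setting chosen after seeing the data, the log2 fold change of IL over CL was 1.33 in Ctrl and 1.29 in cKO for *Pkm*, 1.08 and 1.10 for *Eno1*, 0.67 and 0.86 for *Gapdh* and 0.71 and 1.04 for *Pgk1*. The same 17 genes were called in cKO, and in Ctrl *Eno1* alone lost its call, with a limma adjusted p of 0.0521.

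**Figure D4:**
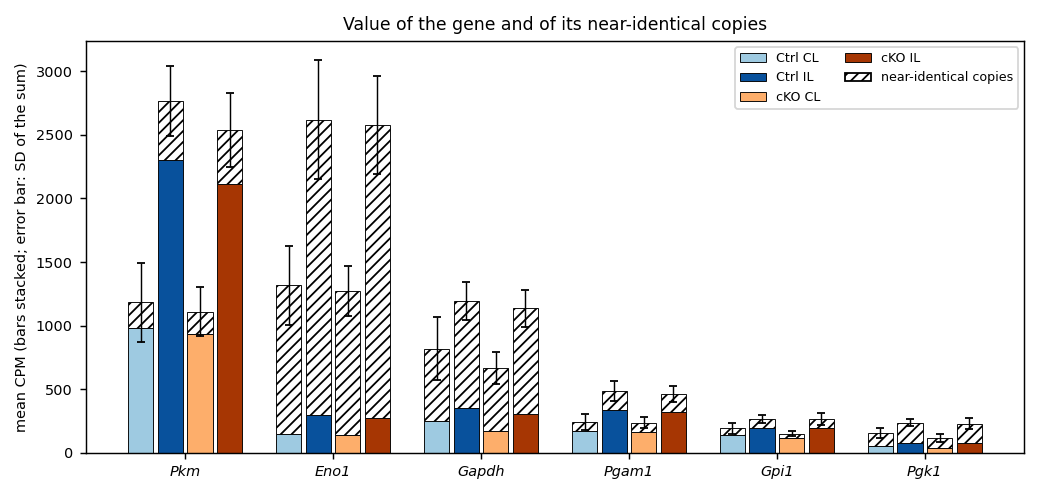
Mean CPM of 6 genes (filled bars) and of their near-identical copies (hatched, stacked on top) in the 4 groups, with the SD of the sum over 3 or 4 libraries as error bars. The sums are higher in IL than in CL for each gene and genotype, and for *Eno1*, *Gapdh* and *Pgk1* the hatched part is the larger.

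The pyruvate dehydrogenase kinases, which inhibit pyruvate dehydrogenase, moved in different directions. *Pdk3* was at 44.5, 37.3, 23.8 and 31.4 CPM in Ctrl CL, 43.3, 44.2, 43.9 and 40.0 in Ctrl IL, 37.7, 23.7 and 30.7 in cKO CL and 46.4, 47.0 and 44.3 in cKO IL. In cKO the groups did not overlap and the log2 fold change was 0.67 (limma adjusted p = 0.0228, SE 0.17); in Ctrl the CL library of mouse 3541 was above all IL libraries, and the change was 0.42 (limma adjusted p = 0.378, SE 0.25). *Pdk2* was at 15.9, 14.8, 22.3 and 15.6 CPM in Ctrl CL, 12.8, 12.8, 19.2 and 11.4 in Ctrl IL, 15.3, 21.7 and 20.9 in cKO CL and 10.3, 11.2 and 12.7 in cKO IL. It was lower in IL without overlap in cKO, with -0.62 (limma adjusted p = 0.0331, SE 0.17), a call that the fixed block did not keep (0.0859), and overlapped in Ctrl, with -0.21 (limma adjusted p = 0.636, SE 0.20). *Pdk2* was called in cKO by the model that took the mouse as random. *Pdk1*, between 91.5 and 167 CPM, was lower in IL in all 6 paired mice and was not called with or without the fixed block, at -0.26 (limma adjusted p = 0.278, SE 0.13) in Ctrl and -0.37 (limma adjusted p = 0.0643, SE 0.12) in cKO. In cKO it was called lower by the model that took the mouse as random, under median-ratio and upper-quartile scaling, without trimmed-mean scaling and without the CL library of mouse 3592.

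Of the oxygen-sensing genes, *Hif1a* and *Vhl* moved in opposite directions. *Hif1a* (ENSMUSG00000021109, chr12:73901375-73947530), the alpha subunit of hypoxia-inducible factor, was at 255, 239, 213 and 247 CPM in Ctrl CL, 444, 475, 462 and 378 in Ctrl IL, 386, 234 and 299 in cKO CL and 651, 511 and 512 in cKO IL. IL and CL were apart in both genotypes, and the Ctrl CL libraries were tightly grouped at 238 ± 18.1 CPM (SD, n = 4). Its log2 change was 0.95 (limma adjusted p = 0.0139, SE 0.18) in Ctrl and 0.97 (limma adjusted p = 0.0136, SE 0.20) in cKO, and the ratio within mice ran from 1.53 to 2.18. These are RNA levels, while the factor is controlled mainly at the protein. *Epas1*, the other alpha subunit, had log2 fold changes of -0.03 and -0.15 and made up 1.36% to 4.57% of the 2 subunits per kilobase. *Vhl*, which recognizes the hydroxylated subunit, was at 128, 118, 123 and 106 CPM in Ctrl CL, 71.5, 87.2, 84.8 and 72.6 in Ctrl IL, 95.2, 114 and 109.9 in cKO CL and 77.2, 73.3 and 74.8 in cKO IL. All IL libraries were below the CL libraries of their genotype. Its log2 change was -0.51 (limma adjusted p = 0.112, SE 0.17) in Ctrl, called with the block (0.00802), and -0.41 (limma adjusted p = 0.0338, SE 0.11) in cKO, not called with the block (0.156).

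Among the prolyl hydroxylases, *Egln3*, itself a known target of the factor, showed the widest spread. It was at 4.23, 3.74, 1.2 and 2.61 CPM in Ctrl CL, 14, 29.6, 5.56 and 8.36 in Ctrl IL, 4.44, 2.21 and 3.13 in cKO CL and 22.8, 4.50 and 7.52 in cKO IL. IL exceeded CL without overlap in both genotypes, and Ctrl mouse 3545 and cKO mouse 791 had the highest IL values. Its log2 change was 1.85 (limma adjusted p = 0.0663, SE 0.52) in Ctrl and 1.39 (limma adjusted p = 0.0875, SE 0.51) in cKO, and with the block it was called in both, with adjusted p values of 0.00309 and 0.0266. Per kilobase, *Egln3* went from 3.7% to 13% of the 3 hydroxylases in Ctrl and from 3.8% to 10.5% in cKO. *Egln1* and *Egln2* were between 26.0 and 81.7 CPM and were not called with or without the fixed block, with log2 fold changes from 0.16 to 0.40. *Egln2* was called higher in Ctrl by the model that took the mouse as random, and in cKO without the CL library of mouse 3592.

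Of the 6 hypoxia-responsive genes, 0 were called between the hemispheres in Ctrl and 1 in cKO, and with the block 1 higher and 1 lower in Ctrl and 2 higher in cKO. Of all genes, 6.65% were called in Ctrl and 22.3% in cKO, and with the block 20.5% and 13.8%. Unadjusted p values under 0.05 were found for 1 gene in Ctrl and 2 in cKO, against 21.2% and 36.6% of all genes. *Bnip3*, which marks mitochondria for removal, was at 55.0, 61.4, 37.7 and 36.5 CPM in Ctrl CL, 77.3, 122, 62.6 and 53.9 in Ctrl IL, 47.7, 37.8 and 36.5 in cKO CL and 106, 51.7 and 48.9 in cKO IL. In Ctrl the groups overlapped and in cKO the lowest IL library was just above the highest CL library, with log2 fold changes of 0.76 (limma adjusted p = 0.244, SE 0.34) and 0.74 (limma adjusted p = 0.108, SE 0.30); with the block both were called, at 0.00333 and 0.0257. The model that took the mouse as random called *Bnip3* in Ctrl and not in cKO. *Ddit4*, a stress-induced inhibitor of the growth kinase mTOR, was at 0.962, 2.08, 3.35 and 4.54 CPM in Ctrl CL, 3.10, 2.50, 8.10 and 5.85 in Ctrl IL, 0.473, 1.35 and 0.415 in cKO CL and 1.96, 4.67 and 1.35 in cKO IL. The groups overlapped in both genotypes, and the log2 fold change was 0.71 (limma adjusted p = 0.247, SE 0.33) in Ctrl and 1.04 (limma adjusted p = 0.0497, SE 0.32) in cKO, the latter 1.76 with a pseudocount of 0.1. *P4ha1*, a subunit of the collagen prolyl hydroxylase, was at 297, 297, 300 and 286 CPM in Ctrl CL, 205, 214, 193 and 173 in Ctrl IL, 309, 236 and 304 in cKO CL and 306, 200.4 and 248 in cKO IL. It was lower in every Ctrl IL library than in every Ctrl CL library, with -0.52 (limma adjusted p = 0.117, SE 0.17) and 0.00672 with the block, while in cKO the change was -0.098 (limma adjusted p = 0.768, SE 0.20).

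*Bnip3l*, a relative of *Bnip3*, was between 87.5 and 120.1 CPM, and copies held 39.8% to 42.9% of its sum. *Ankrd37* and *Adm*, the latter the gene of the vasodilator peptide adrenomedullin, stayed under 9 CPM in every library. None of these 3 was called in any comparison by any fit with or without the block.

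Whether loss of the floxed gene altered these genes was read in each hemisphere on its own. In IL, 0 of the 39 genes were called between cKO and Ctrl by limma, where 0.656% of all genes tested were called, and in CL 0 were called, where the share was 0.875%. The model that took the mouse as random also called 0 in either hemisphere, against 1% of all genes in IL and 1.59% in CL. An unadjusted p under 0.05 was found for 5 genes in each hemisphere, where 8.94% of all genes in IL and 9.79% in CL had one. The median log2 fold change of cKO over Ctrl was -0.050 in IL and -0.066 in CL, against 0.011 and -0.055 over all genes tested. Groups were apart for 3 genes higher and 3 lower in cKO IL, against 4.84% and 5.47% of all genes, and for 1 higher and 0 lower in cKO CL, against 3.98% and 6.04%. The 95% confidence intervals of the 39 genes spanned from -1.84 to 1.90 on the log2 scale in IL and from -1.70 to 1.68 in CL, so that the data do not show equal levels.

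The genes with an unadjusted p under 0.05 are named here after their values were seen. In IL they were *Slc2a6*, *Hk3*, *Pfkfb3*, *Aldoc* and *Eno2*, and in CL *Hk3*, *Pfkfb3*, *Aldoc*, *Eno2* and *Ddit4*; the hemispheres come largely from the same mice and are not independent. *Slc2a6*, whose values stand above, was higher in every cKO IL than in every Ctrl IL library, with a log2 change of 0.88 (limma adjusted p = 0.153, SE 0.21) and a 95% interval of 0.41 to 1.35. Without the IL library of Ctrl mouse 3546 it was called, the only gene of the 39 in that fit, which called 282 genes in all, or 1.71%. *Eno2* differed by 0.96 (limma adjusted p = 0.534, SE 0.41) in IL and 0.79 (limma adjusted p = 0.171, SE 0.22) in CL, at levels under 12 CPM. *Pfkfb3*, which raises the activator of phosphofructokinase, had 0.43 (limma adjusted p = 0.55, SE 0.19) and 0.65 (limma adjusted p = 0.287, SE 0.21), and its groups overlapped in both hemispheres. *Hk3* had -0.30 (limma adjusted p = 0.396, SE 0.11) and -0.37 (limma adjusted p = 0.456, SE 0.15), with overlap. *Aldoc* differed by -0.65 (limma adjusted p = 0.372, SE 0.22) in IL, without overlap, and by -0.53 (limma adjusted p = 0.503, SE 0.24) in CL. In CL *Ddit4* differed by -1.02 (limma adjusted p = 0.225, SE 0.31).

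*Hif1a* was higher in each of the 3 cKO IL than in each of the 4 Ctrl IL libraries, at 558 ± 80.3 against 439.9 ± 42.8 CPM (SD). Its log2 change was 0.35 (limma adjusted p = 0.64, SE 0.18), with a 95% interval of -0.057 to 0.76, and in CL it was 0.33 (limma adjusted p = 0.652, SE 0.20), with -0.13 to 0.78. For *Slc2a5* the log2 fold change of cKO over Ctrl was 0.81 (limma adjusted p = 0.67, SE 0.44) in IL, with an interval of -0.18 to 1.81, and 0.60 (limma adjusted p = 0.736, SE 0.49) in CL, with -0.48 to 1.68. Both cKO libraries of mouse 791 were the lowest of their group for *Slc2a5*. Over the alternatives run, the change of *Slc2a5* ran from 0.49 to 1.42 in IL and from 0.18 to 1.31 in CL, the upper ends without the library of mouse 791 and the lower ends without mouse 784 in IL and 788 in CL. For *Hif1a* it ran from 0.20 to 0.46 in IL and from 0.16 to 0.53 in CL. Of the 7 genes of lower glycolysis called between the hemispheres of cKO, the log2 fold changes of cKO over Ctrl lay between -0.17 (*Gapdh*) and 0.15 (*Tpi1*) in IL and between -0.49 (*Gapdh*) and -0.036 (*Eno1*) in CL. The ends set by *Gapdh* depend on how reads were divided among copies. Those set by *Tpi1* in IL and *Eno1* in CL moved little, to 0.153 and -0.0399 with copies added. With its copies added *Gapdh* differed by -0.056 in IL and -0.26 in CL, and *Pgk1* by -0.065 and -0.405.

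**Figure D5:**
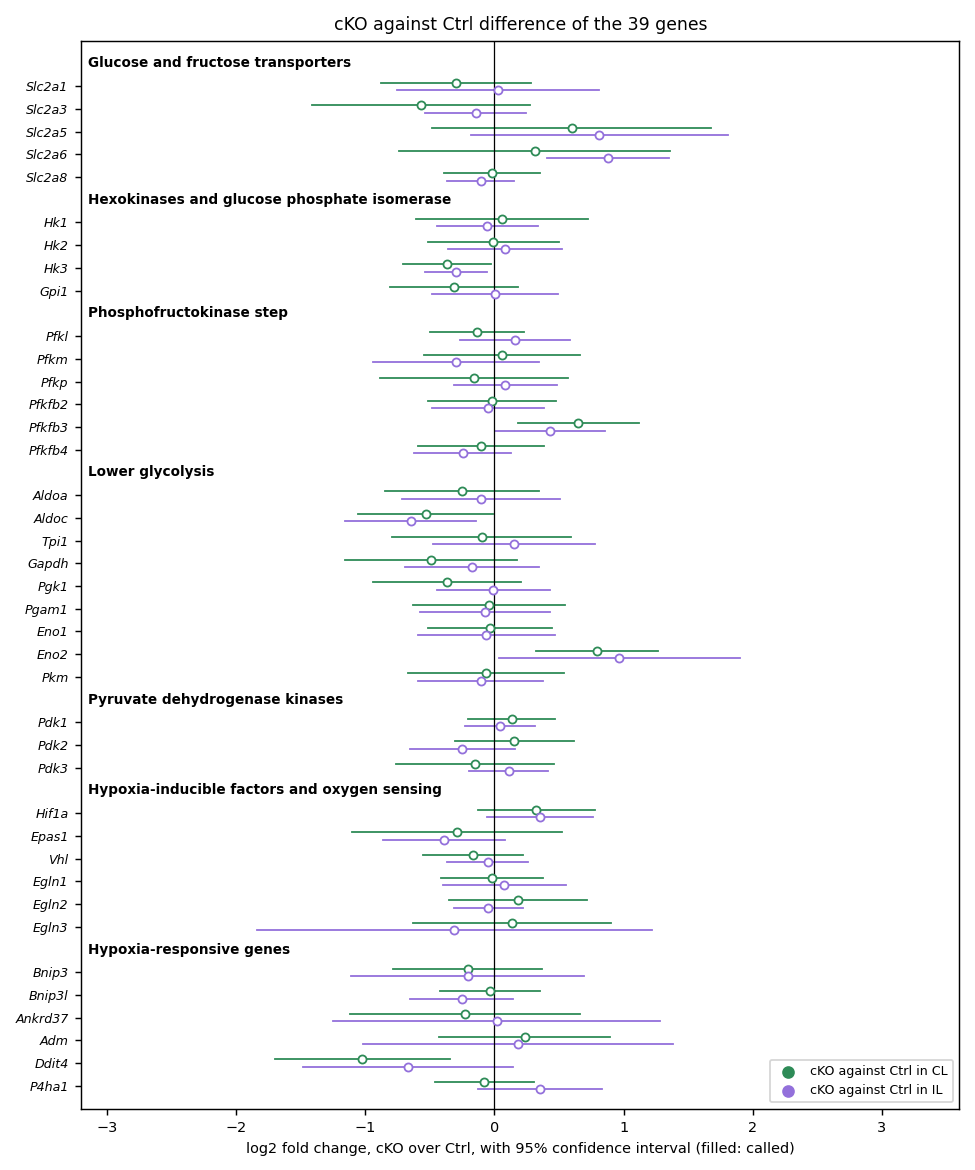
Log2 fold change of cKO over Ctrl (x axis, log2 of CPM + 1 after scaling) for the 39 genes by role, in CL (green, 3 against 4 libraries) and IL (purple, 3 against 4). Bars are 95% confidence intervals, and no point is filled because 0 genes were called in either hemisphere.

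Whether the IL to CL difference itself differed between the genotypes was tested as an interaction over all 14 libraries. It was called for 0 of the 39 genes and for 0 of 18476 genes tested, 0% in all, and, with the mouse taken as random, for 0.0162%, or 3 genes, none of the 39. Unadjusted p values under 0.05 were found for 0 of the 39 and for 2.59% of all genes. The difference of log2 fold changes ran from -0.45 for *Egln3* (95% interval -2.21 to 1.30) to 0.56 for *Slc2a6* (-0.74 to 1.86). For *Hif1a* it was 0.013 (-0.58 to 0.60), for *Pkm* -0.055 (-0.83 to 0.72) and for *Slc2a5* 0.20 (-1.41 to 1.81). A larger number of calls in cKO than in Ctrl is therefore not shown to be a difference between the genotypes.

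Neighbouring genes were taken from 3 further lists. Of 34 other genes of glycolysis, pyruvate handling and sugar transport, 29 were tested between the hemispheres in Ctrl with 0 called (7 at an unadjusted p under 0.05, 6 higher and 1 lower with the block), and 28 in cKO with 5 called higher and, with the block, 6. Of all genes, 6.65% were called in Ctrl and 21.2% had such a p, 9.84% and 10.7% were called higher and lower with the block, and in cKO 12.8% were called higher, or 8.9% with the block. *Ldha*, which turns pyruvate into lactate, was at 677, 577, 318 and 429.9 CPM in Ctrl CL, 979.5, 1177, 783 and 752 in Ctrl IL, 579, 352 and 434 in cKO CL and 1251, 833 and 967 in cKO IL. IL lay above CL without overlap in both genotypes, and the change was 0.99 (limma adjusted p = 0.107, SE 0.33) in Ctrl and 1.25 (limma adjusted p = 0.009, SE 0.24) in cKO. *Slc16a3*, a lactate exporter, rose by 0.99 (limma adjusted p = 0.0421, SE 0.29) on the log2 scale in cKO, *Tigar*, which lowers fructose bisphosphate, by 1.0 (limma adjusted p = 0.0299, SE 0.26) and *Pgm2*, a phosphopentomutase, by 0.50 (limma adjusted p = 0.0196, SE 0.12), a call that the fixed block did not keep (0.0563). With 1 library removed, *Slc16a3* kept its call in 2 of 6 fits, *Tigar* in 3 and *Pgm2* in 4. Of 7 genes of the pentose phosphate pathway, 1 was called higher in Ctrl, *Pgd* with 0.62 (limma adjusted p = 0.0191, SE 0.12), and 5 in cKO, among them *Pgls* with 0.54 (limma adjusted p = 0.00494, SE 0.084), *Taldo1* with 0.48 (limma adjusted p = 0.0111, SE 0.097), *G6pdx* with 0.50 (limma adjusted p = 0.0118, SE 0.10) and *Tkt* with 0.54 (limma adjusted p = 0.015, SE 0.12). Of all genes, 3.68% and 12.8% were called higher. With the block 3 of the 7 were called higher in each genotype, against 9.84% and 8.9% of all genes. In cKO *Taldo1* and *G6pdx* lost the call with the block, at adjusted p values of 0.0668 and 0.0542, and these and *Pgls* were not called by the model that took the mouse as random.

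Of 27 other genes of the hypoxia response, 26 were tested in Ctrl, with 7 called higher and 2 lower in IL, and 25 in cKO, with 9 higher and 2 lower. The shares over all genes were 3.68% and 2.97% in Ctrl and 12.8% and 9.54% in cKO. *Vegfa*, the angiogenic growth factor, was at 21.4, 13.8, 12.0 and 15.7 CPM in Ctrl CL, 134, 175, 105 and 97.7 in Ctrl IL, 22.6, 22.7 and 13.8 in cKO CL and 164, 84.9 and 80.5 in cKO IL. Every IL library lay far above every CL library, with log2 fold changes of 3.01 (limma adjusted p = 0.000557, SE 0.29) in Ctrl and 2.46 (limma adjusted p = 0.00253, SE 0.30) in cKO. *Bhlhe40*, a transcriptional repressor, rose by 2.43 (limma adjusted p = 0.00141, SE 0.28) in Ctrl and 2.0 (limma adjusted p = 0.00181, SE 0.19) in cKO. *Hmox1*, heme oxygenase, rose by 3.13 (limma adjusted p = 0.000557, SE 0.31) in Ctrl and 3.05 (limma adjusted p = 0.00287, SE 0.40) in cKO. *Hilpda*, a lipid droplet protein, rose by 2.96 (limma adjusted p = 0.00639, SE 0.48) in Ctrl and 2.55 (limma adjusted p = 0.00181, SE 0.26) in cKO. *Txnip*, which restrains glucose uptake, was at 1083, 1318, 1436 and 1481 CPM in Ctrl CL, 437, 456, 616 and 407 in Ctrl IL, 758, 949 and 899 in cKO CL and 237, 239 and 261 in cKO IL. It was lower in IL without overlap in both genotypes, with -1.41 (limma adjusted p = 0.00127, SE 0.16) and -1.73 (limma adjusted p = 0.00181, SE 0.13).

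Between the genotypes, 27, 7 and 25 genes of these 3 lists were tested in IL and 29, 7 and 26 in CL. Of them, 3 were called in IL, against 0.656% of all genes, and 1 in CL, against 0.875%. *Ldhb*, the lactate dehydrogenase subunit of oxidative tissues, was at 756, 790.4, 564 and 598 CPM in Ctrl CL, 468, 564, 421 and 511 in Ctrl IL, 28.7, 39.9 and 31.6 in cKO CL and 20.9, 26.0 and 24.7 in cKO IL. The cKO libraries were all under 40 CPM and the Ctrl libraries all over 420, with log2 fold changes of -4.29 (limma adjusted p = 1.37e-05, SE 0.17) in IL and -4.31 (limma adjusted p = 4.84e-06, SE 0.22) in CL. *Txnip* was lower in cKO IL, with -0.93 (limma adjusted p = 0.0281, SE 0.14), and lost its call in 5 of 7 fits with 1 library removed (all except those without Ctrl IL 3546 or 3551). *Lox*, an enzyme that crosslinks collagen, was higher in cKO IL, with 1.46 (limma adjusted p = 0.031, SE 0.22), at 7.27, 5.74 and 6.96 CPM against 2.53, 1.2, 1.96 and 1.67 in Ctrl IL, and lost its call in 5 of 7 such fits (all except those without Ctrl IL 3541 or 3546). The genotype difference of *Ldhb* was called in each of the 19 alternative settings in either hemisphere.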

How the data were processed

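The authors sequenced Smart Seq v4 libraries of total RNA on a NovaSeq, mapped reads with STAR to mm10 and, per the labels, used Partek 8.0; the quantifier is not given in the sources used here. The deposited table, named raw counts, holds CPM, since each library sums to 1e+06; 78.5% to 83.5% of values under 100 reads were whole multiples of 1 step (tolerance 0.03), too few to recover counts, so no count test was run. The authors' tables of p-values, fold changes and group means were not used. Some identifiers of the table are newer than mm10-era annotations, so coordinates come from GENCODE M21 and RefSeq (GRCm38), and exon lengths from GENCODE M21. An exon length counts every base in an exon of any annotated transcript (13401 in *Pfkp*, 6675 in *Pfkl* and 3340 in *Pfkm*). Shares per kilobase therefore depend on the annotation. The gene deleted in the cKO and 1 gene of the marker lists are not reported here.

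CPM were divided by trimmed-mean factors (30% of M-values and 5% of A-values trimmed), and log2(CPM + 1) was fitted with limma 3.58.1 (R 4.3.3) with a trend, on the libraries compared; interactions used all 14. Log2 fold changes are on that scale, which understates changes of low genes. Genes entered with the CPM of 10 reads at median depth in as many libraries as the smaller group and 15 reads in all. The Benjamini-Hochberg adjustment covered all genes tested. Means are CPM ± SD as deposited. The labels tell libraries of a group apart by number alone, so p-values measure the spread between these libraries. Deviations of the hemispheres of 1 mouse correlated at 0.182 to 0.607 in 6 mice, against -0.535 to 0.502 (median -0.215) in 19 other pairs; the labels' numbers were taken as mice and used as a block. Numbers 784 and 788 were taken as different mice, as labelled.

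Alternatives were other scalings, pseudocounts of 0.5 and 0.1, filters, folds, fits of all libraries, the mouse as fixed block or random effect, each library left out and, added after seeing the data, both shallowest libraries left out and copies summed (BLAST+ 2.17.0, every transcript of each gene). Code was tested on simulated data. The 39 genes, lists and tests were chosen with earlier results of these data known. Values in every library are given for genes called by the fit with or without the block and for *Hif1a* and *Slc2a5*, and genes of the other lists are named where called, at most 4 per list and comparison, with *Ldha*, *Hmox1* and *Hilpda* given in the other genotype too. Python 3.11.15, numpy 2.4.6, pandas 2.3.3 and matplotlib 3.10.9 did the remaining steps.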

Additional observations from a re-analysis of the deposited data

How the results depend on the processing

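Over 50 named gene and comparison pairs, 986 alternative values were computed; 839 kept their direction and side of the threshold, 146 kept the direction but were no longer called, 1 became called and 0 reversed. In parentheses is the share of all genes called in the same setting. In Ctrl, 7 genes were called between the hemispheres (6.65%); 11 were without trimmed-mean scaling (8 higher, 3 lower; 8.79%), 3 without a filter on low values (1.84%), 19 with the mouse as a fixed block (20.5%) and 22 with the mouse as a random effect (23%). Leaving out each library gave 1 to 8 (2.83% to 8.56%), and leaving out both shallow ones 6 (7.92%). In cKO, 17 were called (22.3%); 10 were in a single fit of all 14 libraries (7.71%) and 9 at a fold change of at least 2 (4.91%). Median-ratio scaling gave 13 higher and 5 lower (23%) and upper-quartile scaling 12 and 5 (22.9%), against 14 and 3. Leaving out each library gave 7 to 17 (10.9% to 20.1%). Between the genotypes, leaving out each library gave 0 to 1 in IL (0.261% to 1.71%) and 0 in CL (0.412% to 0.991%), and the interaction stayed at 0 in all alternatives run (at most 0.0162%). The cause of these changes was not tested. With the mouse as a block the calls in cKO numbered 17, with *Bnip3*, *Egln3* and *Slc2a5* in place of *Pdk2*, *Slc2a8* and *Vhl*. Of these, the model that took the mouse as random called *Egln3*, *Pdk2* and *Slc2a8* in cKO, and not *Bnip3*, *Slc2a5* or *Vhl*. Depth limits the genes near 1 CPM, such as *Ddit4*, *Ankrd37* and *Adm*, whose log2 changes are understated.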

Other observations

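Single copies of *Gapdh* differed widely between libraries. The pseudogene *Gm13394*, which matches *Gapdh* over 1000 bases at 99.9% identity, was at 283 CPM or more in the 4 libraries of cKO mice 784, 788 and 791 and reached at most 2.35 CPM in the other 10, which include both libraries of cKO mouse 3592 (1.04 in CL and 0.579 in IL). *Gm12033*, another copy, was at 102 CPM in Ctrl CL 3551 and at 127 in Ctrl IL 3546, and at most 2.32 in each of the other 12 libraries, among them the other hemisphere of both mice (1.2 in IL 3551 and 0.75 in CL 3546). These 2 libraries were the shallowest, at 16.1 and 12.2 M reads, and alike in other genes as well. They held *Tubb3* at 13.6 and 17.5 CPM, and the *Gapdh* copies *Gm8864* at 22.2 and 28.1, *Gapdh-ps14* at 8.91 and 13.2 and *Gm3671* at 7.29 and 9.57. The sum of *Gapdh* and all its copies was 1194 ± 151 CPM in Ctrl IL (SD, n = 4) and 1137 ± 146.5 (SD, n = 3) in cKO IL, which differed by -0.056 on the log2 scale (limma adjusted p = 0.978, SE 0.21). The deposited values do not tell the copies' reads apart.

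Some genes of the set differed more between Ctrl mice than between their hemispheres, a pattern noted after the values were seen. *Hk1* was at 22 and 25.2 CPM in CL and 32.8 and 42.7 in IL of mice 3541 and 3545, and at 60.1 and 54.6 in CL and 60.2 and 52.0 in IL of mice 3546 and 3551. *Hk2* was at 43.1 and 42.6 in CL and 49.2 and 48.7 in IL of the first pair, and at 94.3 and 83.4 in CL and 86.2 and 93.5 in IL of the second. *Pfkfb3* was between 100.5 and 121 CPM in the first pair and between 175 and 205 in the second. The labels give these mice no batch.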
